A study of Drosophila melanogaster with 12 samples.

Results

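The unfolded protein response and the integrated stress response were described through 8 Drosophila genes, chosen by their FlyBase symbols out of the 13777 genes of the table. The 8 genes are Xbp1, Ire1, PEK, Gcn2, crc, Atf6, Hsc70-3 and Gp93, and all 8 passed the filter of a mean of at least 1 CPM (reads of a gene per 1000000 reads of its library) that left 9114 genes for testing. The study profiled RNA 3' ends of S2R+ cells, an embryo-derived Drosophila cell line with features of hemocytes, with and without forced expression of ELAV/Hu proteins, which are neuronal RNA-binding proteins that alter 3' end choice. There were 4 groups of 2 libraries. One group was untreated, its treatment labelled none, and in the others Effectene was used to transfect the wild-type form of Elav (labelled ElavWT), of Fne (labelled FneWT) or of Rbp9 (labelled Rbp9WT). All 4 groups share the cell line and its culture medium. The sources used here do not say whether the untreated cells received transfection reagent, which promoter drove the proteins or what share of cells took up DNA, and 4 libraries of RRM mutants were not analysed here.

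When misfolded proteins gather in the endoplasmic reticulum (ER), sensors in its membrane raise folding capacity and lower protein synthesis. Ire1 is a kinase and ribonuclease that removes an unconventional intron from Xbp1 mRNA, PEK (PERK) is a kinase that phosphorylates the translation factor eIF2alpha, and Atf6 in mammals is cut from the membrane to become a transcription factor. Gcn2 phosphorylates eIF2alpha when uncharged tRNA builds up, and crc, the fly ATF4, is the transcription factor whose translation increases when eIF2alpha is phosphorylated, while the chaperones Hsc70-3 (BiP) and Gp93 (GRP94) do the folding work. These steps are largely post-transcriptional, and 3' end reads per gene measure RNA level alone: they show neither Xbp1 splicing, nor phosphorylation of PEK or eIF2alpha, nor translation of crc, nor cleavage of Atf6.

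Libraries held 4694825 to 14391952 reads, so that 1 read was worth 0.0695 to 0.213 CPM, and in each group replicate 1 was the deeper library. Genes named as rRNA took 2.91% to 5.91% of the reads in the replicate 1 libraries and 15.4% to 24.8% in the replicate 2 libraries. Rbp9 stood at 713 and 58.8 CPM in Rbp9WT against 3.34 and 2.35 CPM in untreated cells. In FneWT the gene fne had 97.4 and 48.0 CPM, while untreated libraries had 6.67 and 1.91 CPM. Replicate 1 of ElavWT (49.8 CPM) and of Rbp9WT (114.8 CPM) were also high for fne. The libraries labelled ElavWT held 29.2 and 26.6 CPM of elav, within the 24.9 to 37.3 CPM of untreated cells. The sources used here do not say whether the constructs carry native 3' ends, so elav counts do not check that label, and ElavWT is used below as the label alone. Of 12 hemocyte markers, whose summed level was 448 to 989 CPM, PPO1 was at 0 in all 8 libraries and NimC1 in 7. Sums of 8 neuron markers were 185 and 78.7 CPM in untreated and 162 to 819 CPM in transfected libraries. Sums of 6 muscle markers were 18.5 and 22.03 CPM against 27.7 to 239.7 CPM, those of 5 fat body markers 1.95 and 5.14 CPM against 9.16 to 31.6 CPM, and those of 4 epithelial and glial markers 49.1 and 31.7 CPM against 60.5 to 249.5 CPM. Fbp1 was at 0 in all libraries, and the part of any of these lists in the results below was not tested.

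Gcn2 was above both untreated libraries in all 6 transfected libraries, as were 14.4% of tested genes. It rose in Rbp9WT cells in the limma fit with the replicate number as a term, a call that was lost in edgeR, in DESeq2 and under median-ratio scaling. The RNA of crc was lower in each transfected library than in the untreated library of the same number, with the larger difference in replicate 1 of every group. In replicate 2 the log2 difference was -0.15 in ElavWT, -0.40 in FneWT and only -0.03 in Rbp9WT. Both count models with the replicate term called crc in all 3 comparisons, where they called 1351 to 2364 of all 9114 tested genes. With all 8 libraries limma did not call crc at the authors' scaling, but with that term and median-ratio scaling it called crc in FneWT and Rbp9WT. Xbp1 varied far more between replicates than between groups. The chaperones Hsc70-3 and Gp93 were lowest in ElavWT, and in that comparison they passed in some count models but not in the limma fit. No member was called between any pair of transfected groups with all 8 libraries in the limma fit.

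**Figure D1:**
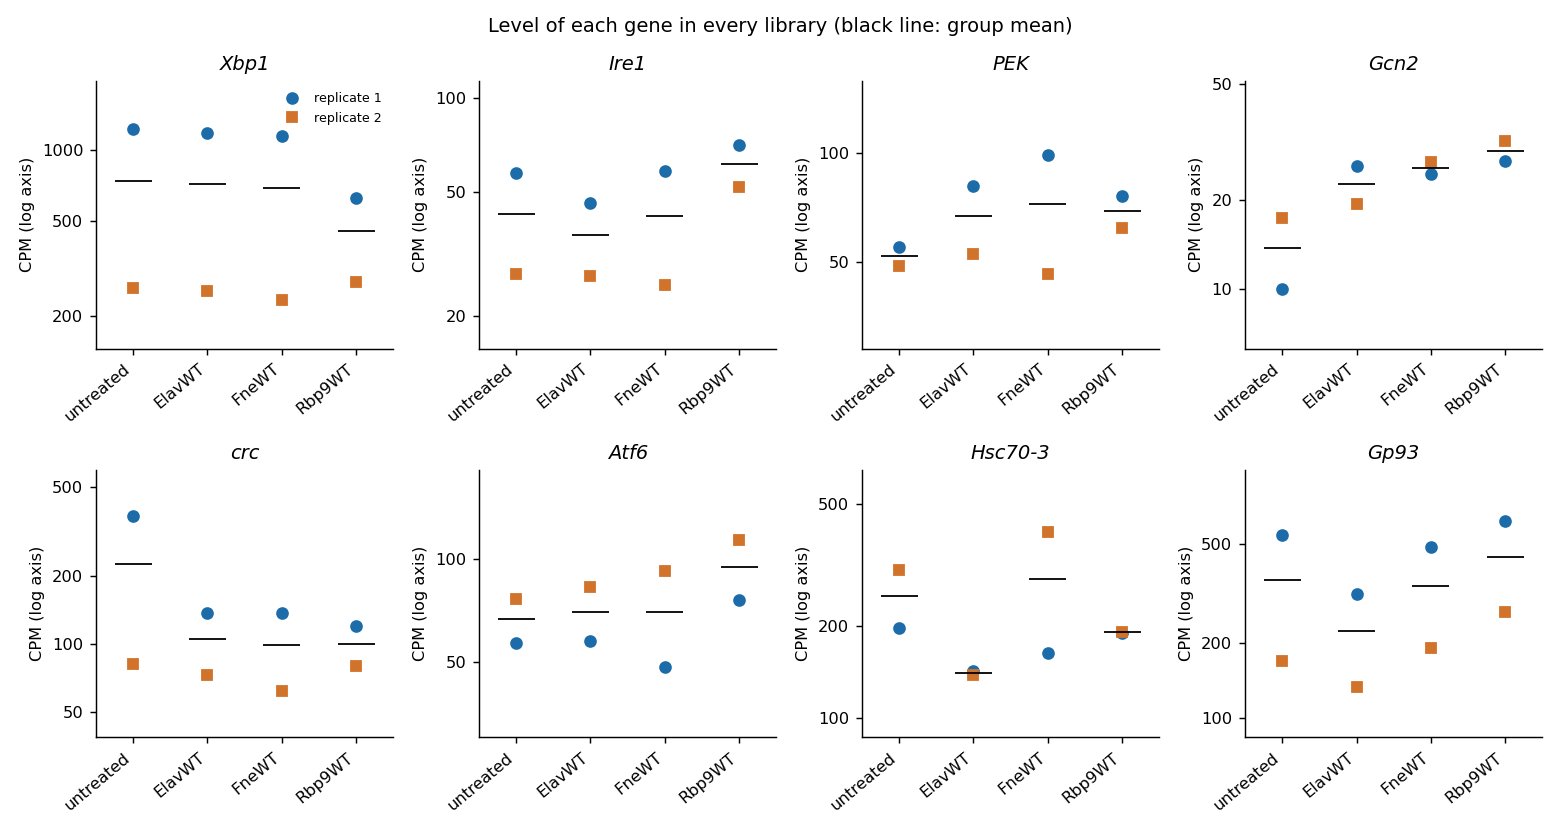
Level of each of the 8 genes in CPM (vertical axis, logarithmic) in the 4 groups. Circles are replicate 1 and squares replicate 2, and black lines are group means. Gcn2 in untreated cells, at 10.0 and 17.5 CPM, lies below all 6 transfected libraries, while Xbp1 and crc separate mainly by replicate.

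The sensors came first. Ire1 (FBgn0261984, chromosome 3R, 19853908 to 19861291, minus strand, BDGP6 annotation) was at 57.2 and 27.3 CPM in untreated replicates 1 and 2, 46.0 and 26.8 CPM in ElavWT, 58.3 and 25.1 CPM in FneWT and 70.7 and 51.8 CPM in Rbp9WT. Rbp9WT was highest in both replicates, yet its range overlapped that of untreated cells. Ire1 overlaps MICU3 on the opposite strand by 496 bp, and MICU3 was at 6.02 to 45.0 CPM. The sources used here do not say whether counting used strand, so reads of such pairs cannot be told apart.

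PEK (FBgn0037327, 3R, 5458563 to 5464753, minus strand) was at 55.2 and 48.8 CPM in untreated cells, 81.1 and 52.8 CPM in ElavWT, 98.3 and 46.4 CPM in FneWT and 76.1 and 62.0 CPM in Rbp9WT. Both Rbp9WT libraries lay above both untreated libraries, as for 39.5% of tested genes whose Rbp9WT and untreated groups did not overlap in either direction, while the other transfected groups overlapped with them. PEK had the narrowest range of the 8 genes, with the highest library 2.12 times the lowest.

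Atf6 (FBgn0033010, 2R, 5144733 to 5154756, plus strand) was at 56.9 and 76.5 CPM in untreated cells, 57.7 and 82.9 CPM in ElavWT, 48.3 and 92.2 CPM in FneWT and 76.0 and 113.9 CPM in Rbp9WT. It was the member whose replicate 2 exceeded replicate 1 in all 4 groups. Rbp9WT again held the highest level within each replicate, and its lower library fell within the untreated range.

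Gcn2 (FBgn0019990, 3R, 31395660 to 31402013, plus strand), the amino acid sensor, was at 10.0 and 17.5 CPM in untreated cells, 26.2 and 19.4 CPM in ElavWT, 24.6 and 27.1 CPM in FneWT and 27.2 and 31.9 CPM in Rbp9WT. Group means were 13.7 ± 5.28 CPM (SD, n = 2) in untreated cells, 22.8 ± 4.84 CPM in ElavWT, 25.9 ± 1.77 CPM in FneWT and 29.5 ± 3.33 CPM in Rbp9WT. Every transfected library exceeded both untreated ones, a pattern that 1308 of the tested genes (14.4%) also had, and no other member had it. Groups that did not overlap with untreated cells in either direction were held by 30.3% of tested genes in ElavWT and 33.4% in FneWT. Gcn2 rested on few reads, 91 to 238 per library. The exact 95% Poisson interval, which covers counting error only, was 14.5 to 20.9 CPM in untreated replicate 2 and 15.6 to 23.8 CPM in ElavWT replicate 2, so within replicate 2 those libraries were not distinguishable at this depth. In Rbp9WT the intervals were 23.8 to 30.8 and 27.1 to 37.2 CPM, above both untreated intervals. Gcn2 overlaps PNPase on the opposite strand by 454 bp. PNPase was at 11.2 and 19.8 CPM in untreated and 12.6 to 23.4 CPM in transfected libraries. Within each replicate PNPase was higher in ElavWT and Rbp9WT than in untreated cells. In FneWT it was higher in replicate 1 and lower in replicate 2. The part of PNPase in the values of Gcn2 was not tested.

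Among the transcription factors, Xbp1 (FBgn0021872, 2R, 21143545 to 21145750, plus strand) was at 1222 and 261 CPM in untreated cells, 1178 and 254 CPM in ElavWT, 1149 and 232 CPM in FneWT and 629.7 and 278 CPM in Rbp9WT. Replicate 1 was 4.69, 4.64, 4.95 and 2.26 times replicate 2 in those groups. The 3 replicate 1 libraries of untreated, ElavWT and FneWT cells differed little from each other, and Rbp9WT replicate 1 was the low one, while Rbp9WT replicate 2 was the highest of its number.

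crc (FBgn0000370, 2L, 21310866 to 21319527, plus strand) was at 371 and 81.5 CPM in untreated cells, 138 and 73.3 CPM in ElavWT, 137 and 61.7 CPM in FneWT and 120.1 and 80.1 CPM in Rbp9WT. Untreated cells held the highest level within each replicate, but untreated replicate 2 lay below every transfected replicate 1, so the groups overlapped. Relative to the median gene, which was itself higher in transfected cells, crc in ElavWT, FneWT and Rbp9WT differed from untreated cells by -1.82, -1.95 and -2.14 (log2) in replicate 1 and by -0.23, -0.45 and -0.33 in replicate 2. crc shares 5168 bp with CG46314 on the same strand. CG46314 was at 36.3 CPM in untreated replicate 2 and 39.8 CPM in FneWT replicate 2, and at 2.13 to 4.58 CPM in the other 6 libraries, and how the counting divided reads between the pair was not tested.

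Of the chaperones, Hsc70-3 (FBgn0001218, X, 11801696 to 11807117, minus strand) was at 197 and 304 CPM in untreated cells, 142 and 138 CPM in ElavWT, 163 and 406 CPM in FneWT and 189 and 192 CPM in Rbp9WT. The ElavWT and Rbp9WT libraries all lay below both untreated libraries, where 30.3% and 39.5% of tested genes had groups that did not overlap in either direction, and the FneWT libraries lay on either side of them.

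Gp93 (FBgn0039562, 3R, 27948711 to 27952151, plus strand) was at 546 and 170.2 CPM in untreated cells, 316 and 134 CPM in ElavWT, 489 and 191 CPM in FneWT and 623 and 266 CPM in Rbp9WT. ElavWT was lowest and Rbp9WT highest within each replicate. All groups overlapped, because each replicate 1 library was above each replicate 2 library.

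The replicate number carried much of the variation. Xbp1, Ire1, PEK, crc and Gp93, 5 of the 8 genes, were higher in replicate 1 in all 4 groups, as were 51.5% of the tested genes, and Atf6 was higher in replicate 2 in all 4, as were 11.9%. The log2 difference of replicate 1 from replicate 2 was 2.22, 2.21, 2.30 and 1.18 for Xbp1 in untreated, ElavWT, FneWT and Rbp9WT cells, and 2.17, 0.90, 1.14 and 0.58 for crc. For all tested genes its median was 0.34, 0.63, 0.80 and 0.50. Measured from that median, a difference as large as that of crc was held by 5.42% of tested genes in untreated cells, and by 78.8%, 75.4% and 93.3% in the transfected groups. The gap of crc was thus that of few genes in untreated cells and an ordinary one after transfection. Depth and rRNA share differ with the replicate number, and their part in these gaps was not tested.

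**Figure D2:**
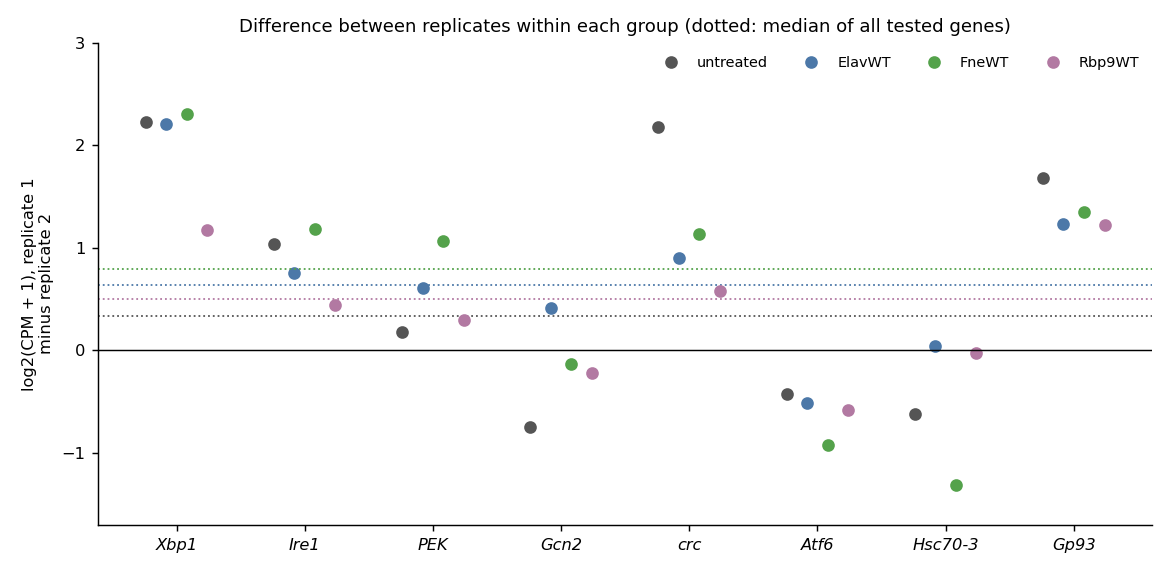
Difference of replicate 1 from replicate 2 (log2 of CPM + 1) for each of the 8 genes in the 4 groups, beside the median of the 9114 tested genes. Xbp1 reaches 2.30 in FneWT, crc falls from 2.17 in untreated cells to 0.58 in Rbp9WT, and Atf6 is below 0 in all groups.

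Each transfected group was then compared with untreated cells by limma on log2(CPM + 1), with Benjamini-Hochberg adjustment over the 9114 genes and a gene called at an adjusted p under 0.05. The 3 comparisons share the untreated libraries. Changes are given relative to the median gene, which stood at 0.25, 0.28 and 0.42 (log2) in ElavWT, FneWT and Rbp9WT, while each p tests the change before that subtraction. The scale understates changes of low genes. In the fit on group alone no gene of the 9114 was called in any of these comparisons (0.0% of tested genes), members included, although 444, 677 and 666 genes, among them 0, 0 and 1 members, had an unadjusted p under 0.05. edgeR on the reads recovered from the CPM called no gene either, with 1 member at an unadjusted p under 0.05 in each comparison, whereas DESeq2 called 263, 436 and 266 genes and no member. Once replicate number entered the model, limma called 921 genes (10.1%), 1551 genes (17.0%) and 1684 genes (18.5%), and 0, 0 and 1 of the 8 members, where 17.7% of tested genes were called higher in Rbp9WT. Nothing in the labels says that the replicates are separate cultures, so p-values measure the spread between these libraries, which may be technical. In bulk RNA a change in the share of affected cells and a change of RNA per cell cannot be told apart.

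Gcn2 was the member called. With the replicate term it rose in Rbp9WT by 0.68 ± 0.33 (SE) relative to the median gene, with a 95% interval of 0.01 to 1.35, which is 2.13-fold before the subtraction (limma adjusted p = 0.0208, higher in 2 of 2 replicates). Without that term its adjusted p was 0.67. In ElavWT and FneWT its change was 0.48 ± 0.33 (adjusted p = 0.169) and 0.63 ± 0.33 (adjusted p = 0.0552), and neither was called. The Rbp9WT call was lost with the replicate term under median-ratio scaling (adjusted p = 0.121), in edgeR (adjusted p = 0.131) and in DESeq2 (adjusted p = 0.149). Without a filter on low values the call was lost too (limma adjusted p = 0.238), in a fit that called none of 13777 genes. It was also lost without untreated replicate 1, Rbp9WT replicate 1 or Rbp9WT replicate 2. Without untreated replicate 2 the change of Gcn2 was 0.89 relative to the median gene. Without ElavWT replicate 1 or 2, which enter the FneWT comparison through the shared spread and replicate effect, Gcn2 passed in FneWT as well (adjusted p = 0.0418 and 0.0475).

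crc had the lowest relative change of the 8 genes in FneWT and Rbp9WT: -1.04 ± 0.33 in ElavWT, -1.20 ± 0.33 in FneWT and -1.24 ± 0.33 in Rbp9WT (limma with the replicate term, adjusted p = 0.135, 0.0556 and 0.0818). None of these passed. With the replicate term crc did pass in edgeR in all 3 comparisons, at adjusted p of 0.0296, 0.0106 and 0.0122, in DESeq2 at 0.0281, 0.00546 and 0.00503, and in limma after median-ratio scaling in FneWT and Rbp9WT, at 0.0229 and 0.0243. Of all 9114 tested genes edgeR called 1534, 2364 and 2046 in these comparisons, and DESeq2 1351 to 2077. Limma after median-ratio scaling called 1708 in FneWT and 1382 in Rbp9WT. These values rest on untreated replicate 1: without it the changes of crc were -0.21, -0.38 and -0.40 relative to the median gene, with limma adjusted p of 0.967, 0.83 and 0.897, and without untreated replicate 2 crc passed in all 3. In FneWT crc also passed without ElavWT replicate 1 or 2 (adjusted p = 0.0302 and 0.0428).

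**Figure D3:**
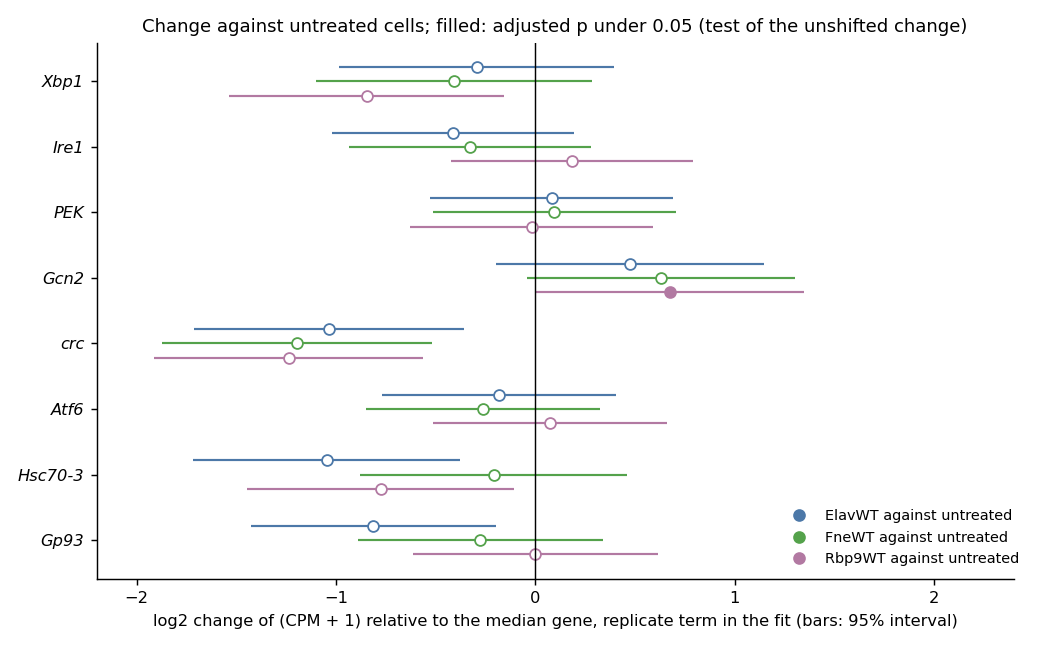
Change of each of the 8 genes against untreated cells (horizontal axis, log2 of CPM + 1 relative to the median gene, with 95% intervals) from the limma fit with a replicate term, for ElavWT, FneWT and Rbp9WT. The filled point, Gcn2 in Rbp9WT at 0.68, is the change with an adjusted p under 0.05, and the points of crc lie between -1.24 and -1.04.

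Hsc70-3 changed by -1.05 ± 0.33 in ElavWT, -0.21 ± 0.33 in FneWT and -0.78 ± 0.33 in Rbp9WT relative to the median gene (limma with the replicate term, adjusted p = 0.125, 0.904 and 0.464). Gp93 changed by -0.81 ± 0.30 in ElavWT, -0.28 ± 0.30 in FneWT and 0.00 ± 0.30 in Rbp9WT (adjusted p = 0.249, 0.994 and 0.351). For ElavWT the count models with the replicate term called Hsc70-3 in edgeR (adjusted p = 0.0413) and DESeq2 (0.0441), and Gp93 in DESeq2 (0.0383). Of all 9114 tested genes those fits called 1534 in edgeR and 1351 in DESeq2. In Rbp9WT the sign of Gp93 depended on the setting, at -0.12 to 0.21 relative to the median gene over the alternatives run with all libraries.

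Xbp1 stood at -0.29 ± 0.34, -0.41 ± 0.34 and -0.85 ± 0.34 relative to the median gene in ElavWT, FneWT and Rbp9WT (adjusted p = 0.947, 0.823 and 0.391 with the replicate term). DESeq2 with that term called Xbp1 in Rbp9WT (adjusted p = 0.0451), where replicate 1 gave -1.47 and replicate 2 gave -0.21. Ire1, PEK and Atf6 were not called. Ire1 was at -0.41, -0.33 and 0.18, PEK at 0.08, 0.09 and -0.02, and Atf6 at -0.18, -0.26 and 0.07, with SEs of 0.28 to 0.30. Over the 8 members the median relative change was -0.35, -0.27 and -0.01 in ElavWT, FneWT and Rbp9WT, where that of all tested genes is 0 by construction. It depended on the filter that sets the median gene. At a minimum of 5 CPM it was -0.24, -0.14 and 0.10, and without a filter -0.20, -0.13 and 0.20.

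The transfected groups were compared with each other for differences in the level of these genes. Whether the proteins caused any difference was not tested. No member was called with all 8 libraries in the limma fit. With the replicate term 16 genes (0.176%) were called between FneWT and ElavWT, 54 genes (0.592%) between Rbp9WT and ElavWT, and none (0.0%) between Rbp9WT and FneWT, where 506 genes had an unadjusted p under 0.05 and edgeR and DESeq2 called 1 and 4. On group alone limma called none (0.0%) in any of the 3, with 62, 88 and 25 genes at an unadjusted p under 0.05, edgeR called none, and DESeq2 called 1, 4 and 1. Gp93 had the lowest p: it was 0.84 ± 0.30 higher in Rbp9WT than in ElavWT relative to the median gene, with an interval of 0.22 to 1.45 (adjusted p = 0.129 by limma, 2 of 2 replicates). It passed when untreated replicate 1 or 2, which are in neither group, was left out of the fit (adjusted p = 0.0186 and 0.0204). Ire1 was 0.62 ± 0.29 higher in Rbp9WT than in ElavWT, with an interval of 0.01 to 1.23 (adjusted p = 0.279), and both Rbp9WT libraries, at 70.7 and 51.8 CPM, lay above both ElavWT libraries, where 20.5% of tested genes had groups that did not overlap. Hsc70-3 was 0.83 ± 0.33 higher in FneWT than in ElavWT, with an interval of 0.16 to 1.501 (adjusted p = 0.47). Most of that difference lay in replicate 2. Leaving out single libraries of these groups gave 0.22 to 1.525 before the median gene was subtracted. For Gcn2 the differences were 0.15, 0.22 and 0.06 in the same order of comparisons, with intervals of -0.52 to 0.82 for FneWT against ElavWT, -0.45 to 0.90 for Rbp9WT against ElavWT and -0.61 to 0.74 for Rbp9WT against FneWT.

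Other genes of the pathways were read from 7 lists of 67 names, of which 60 were in the table and 59 were tested. With the replicate term, 3 of the 59 rose and 1 fell in ElavWT, 4 rose and 3 fell in FneWT, and 5 rose and 1 fell in Rbp9WT. As shares these are 6.78%, 11.9% and 10.2%, beside 10.1%, 17.0% and 18.5% of all tested genes. The median relative change of the 59 was -0.45, -0.31 and -0.32. This and the list medians below depend on the filter that sets the median gene. Among genes averaging 5 CPM or more the median gene stood lower, at 0.13, 0.15 and 0.31 (log2). On group alone limma and edgeR called none of the 59, while DESeq2 called Atf3 in all 3 comparisons (adjusted p = 7.35e-04, 2.20e-04 and 0.00277), chrb in FneWT and Rbp9WT (1.89e-06 and 9.80e-06), and scyl, eIF2Bbeta and Ldh in FneWT (0.0166, 0.0313 and 0.0333). With the replicate term edgeR called 13, 19 and 15 of the 59, where it called 1534, 2364 and 2046 of all 9114 tested genes. DESeq2 with that term called 8, 16 and 15 of the 59, where it called 1351, 2077 and 1860 of all tested genes. These counts over all genes are the background of each call of a count model with that term named below. Genes below are named by the size of the limma change before the median gene is subtracted, so a gene below the median gene ranks lower than its printed relative change.

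None of the 12 tested ER chaperones and folding enzymes was called by limma in any comparison with untreated cells, and their median relative change was -0.51, -0.20 and -0.20 in ElavWT, FneWT and Rbp9WT. Ranked first before the subtraction were Sil1, an exchange factor for BiP, at -1.10 in ElavWT and -0.99 in FneWT (adjusted p = 0.169 and 0.202), and in Rbp9WT Manf, a secreted ER protein, at 0.39 (adjusted p = 0.06). Ranked next were the prolyl isomerase Fkbp14 in ElavWT at -0.99 (0.16), the lectin chaperone Calr in FneWT at 0.43 (0.152) and the co-chaperone P58IPK in Rbp9WT at 0.34 (0.0817). Other chaperones were named after their values were seen: the disulfide isomerase ERp60 was at -0.95, -0.81 and -0.82 (adjusted p = 0.17, 0.258 and 0.397), CaBP1 at -0.95, -0.82 and -0.63 (0.177, 0.251 and 0.686), and Fkbp14 at -0.94 in FneWT (0.171). Count models with the replicate term, which called 1351 to 2364 of the 9114 tested genes per comparison, called some of them. The calls of edgeR were ERp60, Sil1, prtp and Fkbp14 in ElavWT and Sil1 and Fkbp14 in FneWT. Those of DESeq2 were ERp60, CaBP1, prtp and Fkbp14 in ElavWT, ERp60, CaBP1 and Fkbp14 in FneWT and ERp60 in Rbp9WT. None of the 7 translocon genes, with medians of -0.45, -0.65 and -0.45, was called by limma either. Sec63, the J protein of the channel, was at -0.87, -0.79 and -0.996 (adjusted p = 0.218, 0.261 and 0.198), Sec61alpha, the channel itself, at -0.82 and -0.79 in ElavWT and FneWT (0.285 and 0.295), and Sec61gamma at 0.07 in Rbp9WT (0.3). Sec63 was called by edgeR in all 3 comparisons and by DESeq2 in Rbp9WT.

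None of the 11 genes listed for ER-associated degradation was called by limma, and their median relative change was -0.38, -0.18 and -0.24. Ranked first before the subtraction were Ufd1, a cofactor of the p97 ATPase, at 0.63 in ElavWT (adjusted p = 0.0582), Der-1, a derlin of the ER membrane, at -1.20 in FneWT (0.0547) and sip3, the fly Hrd1 ligase, at 0.21 in Rbp9WT (0.164). Ubc6, which in flies is related to yeast Rad6, was at 0.49 in ElavWT (0.152), Der-2 at -0.73 in FneWT (0.329) and Edem2 at 0.11 in Rbp9WT (0.217). Named after their values were seen, Der-1 was at -0.88 in ElavWT and -0.68 in Rbp9WT (0.241 and 0.611), and Edem1 at -0.84, -0.72 and -0.64 in ElavWT, FneWT and Rbp9WT (0.205, 0.301 and 0.618). With the replicate term edgeR called Edem1 in ElavWT and Der-1, Der-2 and Edem1 in FneWT, and DESeq2 called Der-1 in FneWT. The 4 genes of ATF6 and SREBP processing had medians of -0.21, -0.24 and -0.35. Of these S1P, the protease that in mammals makes the first cleavage of ATF6, rose in FneWT by 1.12 ± 0.43 and in Rbp9WT by 1.74 ± 0.43 relative to the median gene (adjusted p = 0.0269 and 0.00111). S1P was at 2.92 and 2.35 CPM in untreated cells, 14.2 and 2.98 CPM in ElavWT, 14.0 and 5.09 CPM in FneWT and 19.9 and 11.6 CPM in Rbp9WT. All transfected libraries lay above both untreated ones, as for 14.4% of tested genes, but ElavWT replicate 2 held 14 reads of S1P, with a Poisson interval that started at 1.63 CPM, below both untreated levels. In ElavWT S1P was at 0.86 (adjusted p = 0.109) and SCAP, the SREBP escort, at -0.96 (0.197). SREBP, in mammals a sterol-regulated transcription factor that the same proteases release, was named after its values were seen. It was at -0.79, -1.06 and -1.12 in ElavWT, FneWT and Rbp9WT (limma adjusted p = 0.255, 0.0681 and 0.0926). With the replicate term edgeR called SREBP in all 3 and DESeq2 in FneWT and Rbp9WT. Leaving out single libraries of the groups compared ended the FneWT call of S1P in 3 of 4 cases, with an adjusted p of up to 0.424 (without untreated replicate 1, FneWT replicate 1 or FneWT replicate 2), and left the Rbp9WT call in place in 4 of 4.

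The 3 tested genes of the Ire1 branch had medians of -0.27, -0.59 and -0.02. Of these Traf4, an adaptor that in mammals belongs to a family with IRE1-binding members, rose in Rbp9WT by 0.75 ± 0.32 (adjusted p = 0.0111). It was at 45.0 and 33.6 CPM in untreated and 139 and 56.4 CPM in Rbp9WT cells. The call of Traf4 was lost with median-ratio scaling, in edgeR, in DESeq2 and without untreated replicate 1, Rbp9WT replicate 1 or Rbp9WT replicate 2, with an adjusted p of up to 0.376 among the last 3. Traf4 was at 0.56 in ElavWT and 0.45 in FneWT (adjusted p = 0.108 and 0.112), RtcB, the RNA ligase that joins Xbp1 exons, at -0.84 in FneWT (0.235, called there by edgeR with the replicate term) and BI-1, a Bax inhibitor of the ER membrane, at -0.28 in ElavWT (0.962).

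**Figure D4:**
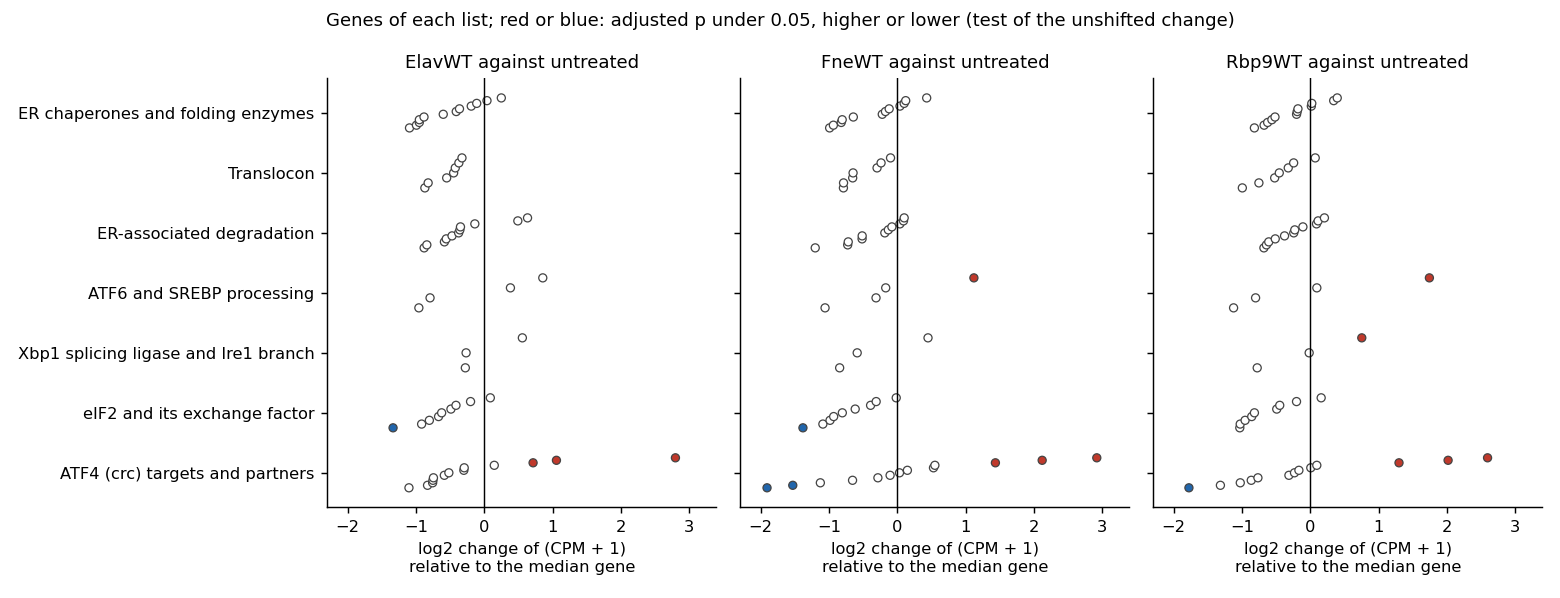
Change of each tested gene of the 7 pathway lists against untreated cells (horizontal axis, log2 of CPM + 1 relative to the median gene) in ElavWT, FneWT and Rbp9WT, from the limma fit with a replicate term. Coloured points passed an adjusted p of 0.05; none of the 12 chaperones, 7 translocon or 11 degradation genes did in this fit, and the largest changes, up to 2.92 for Atf3, lie in the list of ATF4 targets and partners.

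The list for eIF2, the substrate of the kinases, and its exchange factor eIF2B gave 9 tested genes. Among these is PPP1R15, which is a subunit of neither. The median relative changes of the 9 genes were -0.62, -0.81 and -0.82 in ElavWT, FneWT and Rbp9WT. eIF2gamma, the GTP-binding subunit, fell by 1.34 ± 0.31 in ElavWT (adjusted p = 0.0263), from 193 and 51.8 CPM in untreated cells to 62.2 and 34.9 CPM. eIF2Bbeta, a regulatory subunit of the exchange factor, fell by 1.38 ± 0.32 in FneWT (adjusted p = 0.0182), from 48.2 and 25.0 CPM to 20.6 and 11.8 CPM. Both transfected libraries lay below the lower untreated one for eIF2Bbeta, where 33.4% of tested genes had FneWT and untreated groups that did not overlap, while ElavWT replicate 1 lay between the untreated libraries for eIF2gamma. Without untreated replicate 1 or without ElavWT replicate 1 the eIF2gamma call was lost (adjusted p of up to 0.598), and that of eIF2Bbeta was lost without untreated replicate 1, FneWT replicate 1 or FneWT replicate 2 (up to 0.301). eIF2gamma shares 3595 bp with Su(var)3-9 on the same strand, which was at 2.50 to 12.1 CPM. In Rbp9WT limma called none, and eIF2Bepsilon and eIF2beta stood at -1.03 each (adjusted p = 0.142 and 0.233). The count models with the replicate term called more of these genes: edgeR called eIF2gamma and eIF2Bbeta in ElavWT, and both models called eIF2beta, eIF2Bbeta, eIF2Bdelta and eIF2Bepsilon in FneWT and eIF2beta, eIF2gamma, eIF2Bdelta and eIF2Bepsilon in Rbp9WT, where edgeR also called eIF2Bbeta.

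The 13 tested targets and partners of ATF4, compiled from flies and mammals, had median relative changes of -0.52, 0.03 and -0.23 in ElavWT, FneWT and Rbp9WT. Among them limma with the replicate term called Atf3, chrb and scyl higher in all 3 comparisons, Ldh lower in FneWT and Rbp9WT, and Irbp18 lower in FneWT. Atf3, a bZIP factor that in mammals is induced through ATF4, was at 39.3 and 25.0 CPM in untreated cells, 461 and 154 CPM in ElavWT, 592 and 148 CPM in FneWT and 433 and 155 CPM in Rbp9WT. Every transfected library lay far above both untreated ones. Relative to the median gene Atf3 rose by 2.80 ± 0.32, 2.92 ± 0.32 and 2.596 ± 0.32 (limma with the replicate term, adjusted p = 3.66e-07, 1.10e-07 and 4.14e-07). The calls of Atf3 held without each library of the groups compared in turn.

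The genes chrb and scyl are the fly REDD genes, inhibitors of the TOR growth pathway. chrb was at 20.4 and 13.4 CPM in untreated cells, 47.2 and 37.9 CPM in ElavWT, 116 and 72.8 CPM in FneWT and 125 and 70.5 CPM in Rbp9WT, and rose by 1.06, 2.12 and 2.02 ± 0.29 relative to the median gene (adjusted p = 0.00392, 1.98e-06 and 1.83e-06). scyl was at 47.3 and 46.6 CPM in untreated cells, 106.9 and 79.9 CPM in ElavWT, 150.4 and 163 CPM in FneWT and 166 and 147 CPM in Rbp9WT, and rose by 0.71, 1.44 and 1.30 ± 0.29 (adjusted p = 0.0311, 1.58e-04 and 1.58e-04). For both genes every transfected library lay above both untreated ones, as for Atf3 and for 14.4% of tested genes. The ElavWT call of chrb was lost without ElavWT replicate 2 (adjusted p = 0.0636). That of scyl was lost with median-ratio scaling, in edgeR, in DESeq2 and without untreated replicate 1, ElavWT replicate 1 or ElavWT replicate 2 (up to 0.381).

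Ldh, lactate dehydrogenase, fell in FneWT by 1.91 ± 0.30 and in Rbp9WT by 1.78 ± 0.30 relative to the median gene (adjusted p = 4.37e-04 and 0.00224). It was at 128 and 55.5 CPM in untreated cells, 108 and 28.8 CPM in ElavWT, 39.4 and 17.8 CPM in FneWT and 46.9 and 21.9 CPM in Rbp9WT. All FneWT and Rbp9WT libraries lay below both untreated ones, where 33.4% and 39.5% of tested genes had groups that did not overlap in either direction, and the Rbp9WT call was lost without Rbp9WT replicate 1 (adjusted p = 0.0861). Irbp18, a bZIP partner of crc, was named after its values were seen: it was at 32.9 and 23.5 CPM in untreated and 10.4 and 11.8 CPM in FneWT cells, and fell there by 1.53 relative to the median gene (adjusted p = 0.0134). That call was lost without untreated replicate 1, FneWT replicate 1 or FneWT replicate 2 (up to 0.33). Irbp18 was at -1.10 in ElavWT and -1.32 in Rbp9WT (limma adjusted p = 0.12 and 0.0691), and both count models with the replicate term called it in all 3 comparisons. Irbp18 shares 741 bp with CG33947 on the opposite strand. CG33947 was at 16.8 and 73.9 CPM in untreated cells and at 16.9 to 55.5 CPM in transfected libraries, and its part in the values of Irbp18 was not tested. Also named after their values were seen, asparagine synthetase (AsnS) was at -1.13 in FneWT (limma adjusted p = 0.128), and Thor, the fly 4E-BP, and Shmt, of serine and glycine metabolism, were at -1.03 and -0.87 in Rbp9WT (0.223 and 0.313). Both count models with the replicate term called each of these there, and edgeR called Ldh in ElavWT. AsnS shares 1856 bp with chb on the same strand, which was at 55.2 to 92.1 CPM. How the counting divided reads between that pair was not tested. In FneWT AsnS was at -2.02 in replicate 1 and -0.24 in replicate 2. From the same list, aay (0.41 and 0.68) and Sesn (0.44 and 0.62) were higher in both FneWT replicates, and neither count model called them there. Without a filter on low values limma with the replicate term called none of the 13777 genes in any comparison. All its calls of these pathway genes were thus lost, Atf3 included (adjusted p = 0.165, 0.13 and 0.115).

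**Figure D5:**
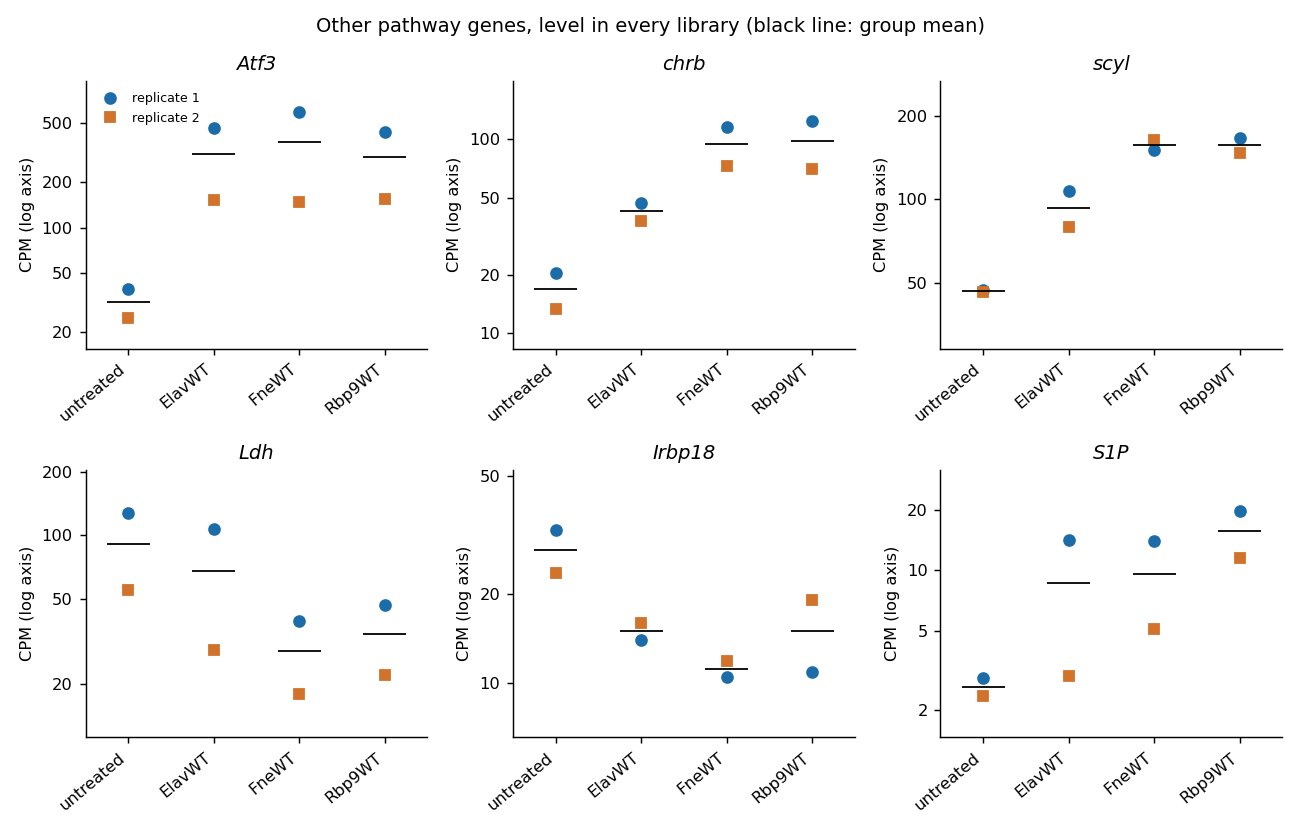
Level in CPM (vertical axis, logarithmic) of 6 other pathway genes in each library, circles for replicate 1 and squares for replicate 2, with group means as black lines. Atf3 goes from 39.3 and 25.0 CPM in untreated cells to between 148 and 592 CPM after transfection, chrb and scyl are higher in all transfected libraries, and Ldh is lower in FneWT and Rbp9WT.

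For 3 members the genes with the most similar pattern over the 8 libraries were sought among 6190 genes averaging 10 CPM or more, by the mean absolute difference of centred log2 values. For Xbp1 they were EndoGI (0.15), mib1 (0.19) and CG9641 (0.20), where the median over all candidates was 0.85. For Hsc70-3 they were Dsp1 (0.12), l(1)G0289 (0.14) and CG6878 (0.14), with a median of 0.66, and for crc CG31715 (0.10), Snx1 (0.11) and ThrRS (0.13), with a median of 0.63.

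In the annotation, Gcn2 and Atf6 have 2 distinct transcript 3' ends and the other 6 members have 1, which is also the median of 8770 tested protein-coding genes. Their longest annotated 3' UTRs were 886 bp for Xbp1, 532 bp for Ire1, 829 bp for PEK, 636 bp for Gcn2, 470 bp for crc, 726 bp for Atf6, 917 bp for Hsc70-3 and 326 bp for Gp93, where the median of those genes was 327.5 bp. The table holds 1 value per gene, so use of 1 end or another was not analysed here.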

How the data were processed

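Sequencing of RNA 3' ends started from 2 µg of RNA, per the labels' protocols. The authors deposited 1 table of CPM per gene. The build was dm6, per the submitters' processing notes, and the sources used here name no aligner, counter or strand setting. In each library all CPM values were whole multiples (within 0.01 reads) of the worth of 1 read, which gave back the reads. No column of the table was left unused. FlyBase identifiers were matched to symbols for 13684 genes and not for 93, and coordinates come from the BDGP6 annotation.

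log2(CPM + 1) values of genes averaging 1 CPM or more were fitted in limma 3.58.1 (trend, robust; R 4.3.3), with all 8 libraries sharing the spread, by group alone and, as an alternative, with the replicate number as a block. For each of the 6 pairs of groups, deviations of same-numbered libraries had a correlation of 0.55 to 0.87, so the numbers were taken to pair libraries. This rests on the values, as no label says what a number shares. On the recovered reads, edgeR 4.0.16 (quasi-likelihood, TMM) and DESeq2 1.42.0 were run. Other alternatives were median-ratio scaling, totals without rRNA-named genes, a pseudocount of 0.5 CPM, no filter or a minimum of 5 CPM, and leaving out each library of the groups compared or, added after seeing the data, of the others. Scripts were tested on simulated data. Intervals relative to the median gene carry no error of that median.

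Members and lists were chosen with earlier results of these data known. Of each list, up to 4 genes called with the replicate block were named per comparison by size of the limma change before the median gene is subtracted, or the 2 largest where none was called. Lower-ranked calls and the patterns most similar to Xbp1, Hsc70-3 and crc were given as stated.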

Additional observations from a re-analysis of the deposited data

How the results depend on the processing

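Counts of called genes are given in the order ElavWT, FneWT and Rbp9WT against untreated cells, then FneWT against ElavWT, Rbp9WT against ElavWT and Rbp9WT against FneWT. On group alone limma called 0 in each. With the replicate block it called 921, 1551, 1684, 16, 54 and 0. With the block these became 960, 1708, 1382, 16, 39 and 0 under median-ratio scaling, 879, 1606, 1600, 16, 29 and 0 with totals without rRNA-named genes, 1044, 1662, 1820, 16, 54 and 1 at a pseudocount of 0.5, 667, 1099, 1337, 5, 19 and 0 at a minimum of 5 CPM, 1534, 2364, 2046, 21, 54 and 1 in edgeR and 1351, 2077, 1860, 34, 80 and 4 in DESeq2. DESeq2 without the block called 263, 436, 266, 1, 4 and 1, and limma without a filter 0, 5, 9, 0, 4 and 3, or 0 in each with the block (added after seeing the data). Leaving out single libraries gave 0 without the block. With it, and leaving out a library of the groups compared, ElavWT gave 294 without untreated replicate 1, 2796 without untreated replicate 2, and 329 and 804 without its own replicates 1 and 2. FneWT gave 508, 3465, 278 and 932 in that order, and Rbp9WT 563, 3429, 622 and 623. Between proteins, again leaving out a library of the groups compared, the counts were 0 to 46 (11 without ElavWT replicate 2), 4 to 34 (31 without ElavWT replicate 1) and 1 to 6, with 1 as the lowest above 0. Leaving out a library of another group, an alternative added after seeing the data, gave with the block 779, 719, 818 and 801 in ElavWT (without FneWT replicates 1 and 2, then Rbp9WT replicates 1 and 2), 1782, 1698, 1359 and 1353 in FneWT (ElavWT, then Rbp9WT) and 1874, 1795, 1546 and 1493 in Rbp9WT (ElavWT, then FneWT). Between proteins it gave 135 and 132 for FneWT against ElavWT without untreated replicates 1 and 2 (26 and 25 without those of Rbp9WT), 297 and 300 for Rbp9WT against ElavWT (13 and 12 without those of FneWT), and 0 to 5 for Rbp9WT against FneWT, with 0 without ElavWT replicate 2. The share of higher calls was 89.3%, 88.6% and 96.0% with the block against untreated cells, and 72.8%, 65.1% and 68.0% after median-ratio scaling.

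Of the 8 members, 0 were called on group alone. With the block the call in Rbp9WT was Gcn2 at the authors' scaling, with rRNA-free totals, a pseudocount of 0.5 or a minimum of 5 CPM (1 each), and crc under median-ratio scaling and in edgeR (1 each), while DESeq2 called 2 (crc and Xbp1). In FneWT 1 was called with rRNA-free totals (Gcn2, adjusted p = 0.0468), median-ratio scaling, edgeR and DESeq2 (crc). In ElavWT edgeR called 2 (crc and Hsc70-3) and DESeq2 3 (also Gp93). Over the 3 comparisons with untreated cells those edgeR fits called 1534 to 2364 of all 9114 tested genes, and those of DESeq2 1351 to 2077. When single libraries of the groups compared were left out with the block, calls came only without untreated replicate 2. They were Gcn2 and crc in each of the 3 comparisons with untreated cells, where calls over all genes were also the most. Without a library of another group, FneWT had 2 (Gcn2 and crc) without either ElavWT replicate, Rbp9WT kept 1 (Gcn2) without any ElavWT or FneWT replicate, and Rbp9WT against ElavWT had 1 (Gp93) without either untreated replicate. The block changed no other member's call. Causes were not tested. Reads of Gcn2 (91 to 238 per library) limit what its changes can show, and 2 libraries a group limit all tests.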
